A study of Mus musculus with 6 samples.

Results

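The genes described here drive the S phase of the cell cycle: 46 genes that license and fire replication origins, copy and ligate DNA, supply deoxynucleotides and pack the new strands into chromatin. They were chosen by symbol, and all 46 were found among the 24982 rows of the deposited count matrix. All 46 also passed the filter on low counts, which kept 12310 genes. RNA came from epidermal stem cells and their progeny, sorted from mouse dorsal skin as 3 denervated and 3 normal libraries. All mice carried the knock-in allele Lgr6-EGFP-Ires-CreERT2, by which cells that express the R-spondin receptor gene Lgr6 make EGFP and a tamoxifen-activated Cre. They also carried R26loxP-stop-loxP-tdTom, from which Cre switches on the red reporter tdTomato in these cells and their descendants. All received one 20 µg dose of tamoxifen on postnatal day 42. The denervated libraries came from the left side of the back, whose cutaneous nerves had been removed 4 weeks earlier, and the normal libraries from the right side of the same animals (numbers 890, 892 and 899), whose nerves were left in place. No sham dissection of the right side is described, so the loss of nerves cannot be told apart from the operation or from left against right. The protocol names tdTomato and CD49f (Itga6) staining, and the series' design text adds GFP to the gate. Lgr6 expression drives the Cre, so the sort was aimed at that lineage, although immune marker transcripts such as Cd207 were also present. Labelled cells need not all have been stem cells at harvest. Sex is not given in the sources used here.

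Replication starts when the origin recognition complex, with Cdc6 and Cdt1, loads the Mcm2-7 helicase onto DNA in G1. Cdc45 and the GINS complex then turn the helicase on, primase and the polymerases copy both strands around the sliding clamp Pcna, and flap endonuclease and ligase join the fragments. Most of these genes are known targets of E2F factors, which RB holds back until cyclin-dependent kinases release them. In resting interfollicular epidermis dividing cells are largely basal, so in bulk RNA these transcripts report how many cells are in late G1 and S as well as how much each cell makes. Fewer cycling cells and less RNA per cell cannot be told apart here.

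The promoters of these genes were searched for the E2F core, the CCAAT box and the GC box. The RefSeq promoter table (GRCm38.p6, the assembly of mm10) held a window of 250 bases before to 50 bases after the start for 38 of the 46 genes, and for genes with several windows the one nearest the annotated start was read. Prim2, Gins1, Mcm4, Ccne2, Gins2, Rfc2, Pole and Gins4 had none. The E2F core was searched on both strands as TTTCCCGC, TTTCGCGC, TTTGCCGC and TTTGGCGC, spellings that can overlap on opposite strands. At least 1 core lay in 12 of these 38 windows (31.6%), against 744 of all 32851 windows in the table (2.26%). Of the 7 licensing genes with a window 6 held a core, while none of 5 nucleotide supply genes, 5 single-strand binding and maturation genes or 4 chromatin assembly genes had one. The CCAAT box, searched as CCAAT on both strands, lay in 23 of 38 windows (60.5%), against 37.4% of all windows, and the GC box GGGCGG in 28 of 38 (73.7%), against 35.7%. A match of letters is a description and not a binding site.

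**Figure D1:**
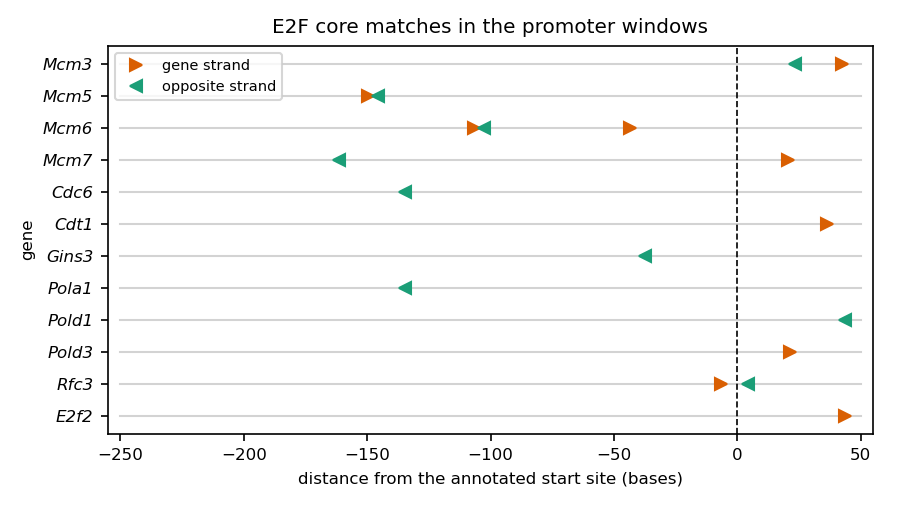
Positions of E2F core matches in the promoter windows of the 12 replication genes that held one. The x axis is the distance from the annotated start site in bases, each grey line is 1 window, and arrowheads mark matches on the gene strand (orange, pointing right) or the opposite strand (green, pointing left). Matches start between −165 and 40, and Mcm6 holds the most, 3.

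The promoters of 5 genes are shown, 5′ to 3′ on the strand of the gene, with E2F cores and CCAAT boxes (either strand) in capitals. Pold2, Mcm2 and Chaf1b are those of the genes whose level differed most between the animals, and Mcm3 and Mcm6 are licensing genes that carry E2F cores, chosen after the search. Their windows are chr11:5878207-5878506 (minus strand), chr6:88898731-88899030 (minus), chr16:93883651-93883950 (plus), chr1:20820263-20820562 (minus) and chr1:128359656-128359955 (minus).
Pold2: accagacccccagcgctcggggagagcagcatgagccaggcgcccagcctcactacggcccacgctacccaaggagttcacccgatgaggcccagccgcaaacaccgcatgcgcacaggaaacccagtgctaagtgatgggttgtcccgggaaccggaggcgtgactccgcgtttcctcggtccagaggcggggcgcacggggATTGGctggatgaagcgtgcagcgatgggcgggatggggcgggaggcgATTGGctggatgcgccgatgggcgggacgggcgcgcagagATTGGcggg
Mcm2: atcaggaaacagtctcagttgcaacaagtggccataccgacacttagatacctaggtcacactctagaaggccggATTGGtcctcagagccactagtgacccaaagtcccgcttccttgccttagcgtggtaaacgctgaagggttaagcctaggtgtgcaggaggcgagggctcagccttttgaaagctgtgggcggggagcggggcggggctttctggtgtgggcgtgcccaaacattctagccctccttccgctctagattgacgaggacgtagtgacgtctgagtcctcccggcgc
Chaf1b: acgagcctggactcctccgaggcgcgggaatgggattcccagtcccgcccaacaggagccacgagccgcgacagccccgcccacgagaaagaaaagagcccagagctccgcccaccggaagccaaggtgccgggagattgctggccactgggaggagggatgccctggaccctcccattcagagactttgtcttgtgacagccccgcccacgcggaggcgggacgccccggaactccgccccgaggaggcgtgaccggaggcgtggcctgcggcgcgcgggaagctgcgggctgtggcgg
Mcm3: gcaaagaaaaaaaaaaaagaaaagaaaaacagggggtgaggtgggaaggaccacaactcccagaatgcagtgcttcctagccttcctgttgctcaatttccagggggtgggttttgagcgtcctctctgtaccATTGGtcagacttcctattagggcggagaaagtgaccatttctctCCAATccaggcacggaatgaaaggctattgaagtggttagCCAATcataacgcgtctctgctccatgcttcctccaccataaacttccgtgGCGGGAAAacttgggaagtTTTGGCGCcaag
Mcm6: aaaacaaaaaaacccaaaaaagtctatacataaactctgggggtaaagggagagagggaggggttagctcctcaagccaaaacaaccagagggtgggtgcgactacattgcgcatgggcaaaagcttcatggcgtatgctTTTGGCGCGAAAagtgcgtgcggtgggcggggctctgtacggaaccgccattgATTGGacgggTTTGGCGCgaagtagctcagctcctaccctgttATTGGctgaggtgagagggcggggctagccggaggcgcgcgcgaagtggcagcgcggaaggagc
The Mcm6 window has 3 cores, of which the first and second overlap as the run TTTGGCGCGAAA, 2 CCAAT boxes and 2 GC boxes. Mcm3 has 2 cores, both downstream of the start site, and 3 CCAAT boxes. The Pold2 window has no core but 3 CCAAT boxes, that of Mcm2 has 1 CCAAT box, and that of Chaf1b has neither and 5 GC boxes. Pold2, Mcm2 and Chaf1b thus held no E2F core. Mcm3 holds 2 and varied nearly as much, with a log2 range between the animals of 0.55, against 0.56 for Chaf1b. The median range was 0.36 in the 12 genes with a core and 0.35 in the 26 with a window but no core.

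The 6 libraries held 9610071 to 14021730 counts on the denervated side and 13801154 to 26167593 on the normal side, and every one of the 46 genes had at least 27 counts in each library. Levels within a gene are given below in CPM, counts scaled to a common library size with TMM factors. Levels between genes are given in TPM, transcript counts per length scaled to a common total, as deposited and without TMM factors. Values are always for animals 890, 892 and 899 in that order. The denervated library of animal 890 was the shallowest and stood apart most often, being the highest of the 6 in 22.3% and the lowest in 24.1% of all genes tested. Basal keratinocyte markers summed to 40327, 39415 and 35534 TPM in denervated and 38428, 36926 and 38331 TPM in normal libraries, with Krt5, Krt14, Itga6, Itgb4, Col17a1 and Trp63 all present. Suprabasal markers (Krt1, Krt10, Lor and Ivl) summed to 5799, 7300 and 6009 TPM in denervated and 7616, 6848 and 7355 TPM in normal libraries. The suprabasal sum was thus lower on the denervated side in animals 890 and 899 and higher in animal 892. Its part in the levels of the replication genes was not tested. Fibroblast, endothelial, Schwann cell, melanocyte and muscle markers each summed to at most 2.07 TPM in any library, and Lum and Cdh5 were listed at 0 in all 6. The 5 immune markers, mostly Cd74 and the Langerhans cell gene Cd207, summed to 111, 122 and 151 TPM in denervated and 108, 79.8 and 141 TPM in normal libraries, so that the lowest sum was that of the normal library of animal 892.

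Most replication genes had a slightly lower fitted level in denervated than in normal cells of the same animals, but no gene passed the test. In edgeR's quasi-likelihood test with the animal as a block, 0 of the 46 genes were called at an adjusted p below 0.05 over all genes tested, against 3.46% of all 12310 genes (2.88% higher and 0.577% lower). The smallest adjusted p was 0.109, for Rpa1. At an unadjusted p below 0.05, 6 of the 46 were lower (13%), against 7.86% of all genes, and 0 were higher, against 10.4%. DESeq2 called 0 of the 19 of these genes to which it gave an adjusted p with the block, against 7.53% of all genes, and 0 of 14 without it, against 6.29%. Without the block, edgeR called 0 of the 46 and 0 of all genes. At an unadjusted p below 0.05 it had 3 of the 46 lower, against 4.93% of all genes, and 0 higher, against 7.55%. Limma on log2 TPM called 0 of 46 and 1 of all 11866 genes it tested. The fold change was below 0 in 36 of 46 genes, against 54.7% of all genes. Its median was −0.16, with a range of −0.41 (Cdc45) to 0.22 (Pold3), while the median over all genes was −0.02 and their quartiles lay at −0.17 and 0.12.

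The intervals set the size that these data leave possible. The 95% interval of the log2 fold change included 0 for 40 of 46 genes and lay within −1 and 1 for all 46. It reached −0.5 or lower for 16 genes and 0.5 or higher for 2, Cdc6 and Prim2. The lowest bound was −0.79, for Gins3, and the highest was 0.70, for Cdc6. The median distance from the estimate to either bound was 0.28.

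**Figure D2:**
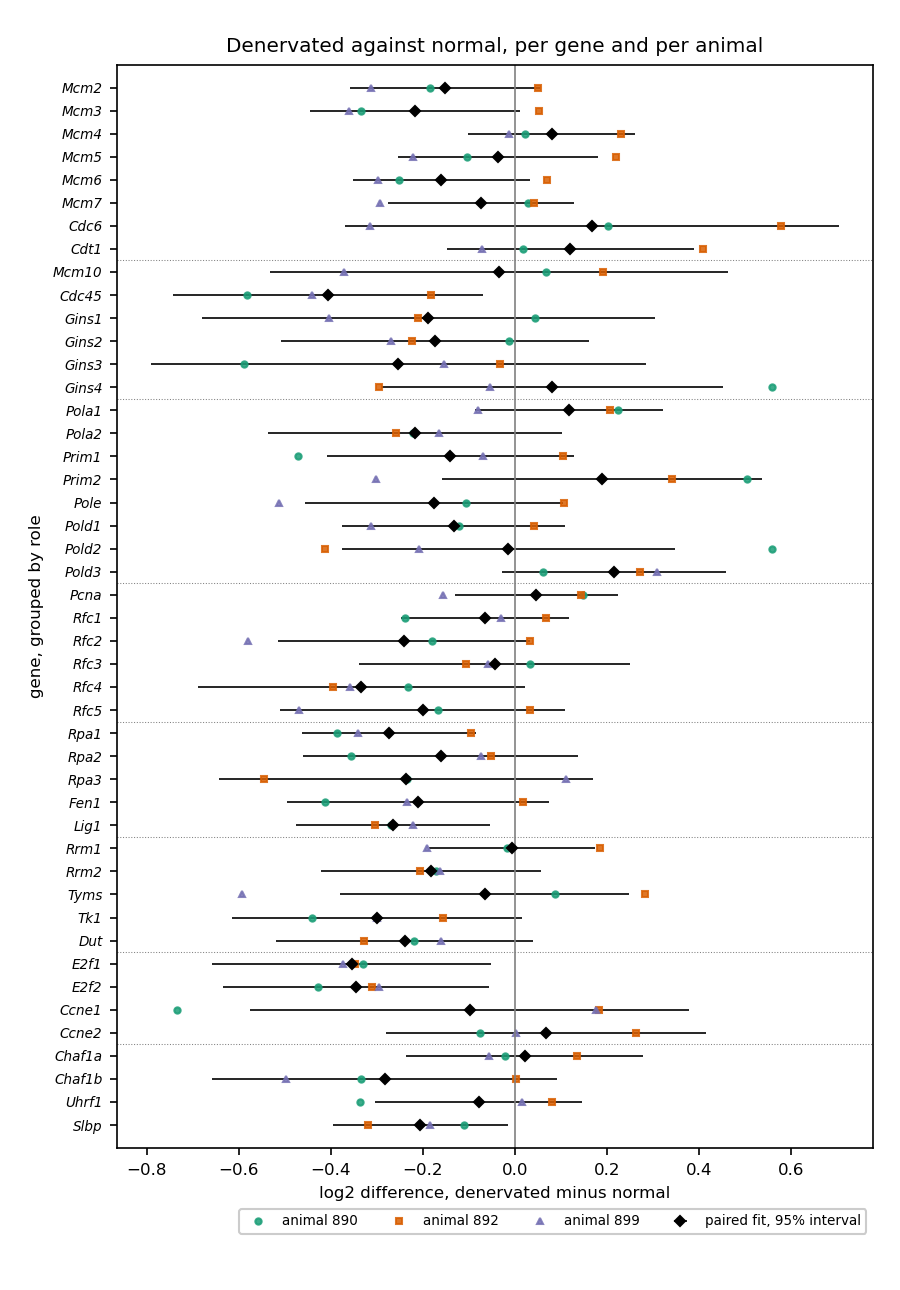
Log2 difference of denervated minus normal for each of the 46 genes, grouped by role from licensing (top) to chromatin assembly (bottom). Black diamonds with bars are the paired edgeR fit with its 95% interval, and coloured points are the difference within animals 890 (green circle), 892 (orange square) and 899 (purple triangle). Most diamonds lie left of 0, the bars of 40 genes cross 0, and the points of animal 892 often lie to the right of the other animals' points.

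The animals did not show this shift alike. In animal 899, 41 of the 46 genes were lower on the denervated side, against 52.4% of all genes, with a median difference of −0.22 on the log2 scale. In animal 890, 32 were lower, against 51.9% of all genes, with a median of −0.17. In animal 892 only 19 were lower, against 51.3% of all genes, and the median was 0.04. All 3 animals pointed down for 14 of the 46 genes (30.4%), against 21.4% of all genes, and all pointed up for 1, Pold3, against 19.3%. With scaling by library totals alone, which moved the median of all genes to −0.09, 26 genes pointed down in all 3 animals (56.5%), against 31.2% of all genes, and 0 pointed up, against 12.9%. Without animal 892 the remaining 2 animals both pointed down in 28 genes (60.9%), against 27.8% of all genes, and without animal 899 in 15 (32.6%), against 33.9%. The 3 denervated libraries all lay below the 3 normal ones for 6 genes (Cdc45, Rfc4, Rpa1, Tk1, E2f2 and Slbp), against 9.21% of all genes, and all above them for Pold3 alone, against 9.76%.

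Most of the genes shared an order of animals. With both sides averaged, animal 892 had the lowest level of the 3 animals in 36 of 46 genes (78.3%), against 33.8% of all genes tested. Animal 899 had the highest level in 32 of 46 (69.6%), against 35.7%, and the lowest in 3, against 34%. Both sides showed this order separately. On the denervated side animal 892 was lowest in 24 of 46 genes (52.2%), against 31.1% of all genes, and animal 899 highest in 25 (54.3%), against 32.9%. On the normal side animal 892 was lowest in 37 (80.4%), against 33.8%, and animal 899 highest in 32 (69.6%), against 38.5%. The full order of the 3 animals was the same on both sides in 18 of 46 genes (39.1%), against 23.9% of all genes. The normal library of animal 899 was the highest of all 6 for 24 of the 46 genes, against 15.6% of all genes. The normal libraries of animals 890 and 892 were highest for 6 and 2 genes, against 16.6% and 17.4% of all genes. The normal library of animal 892 was the lowest of all 6 for 19 of the 46, against 18.2% of all genes. The normal libraries of animals 892 and 899 enter both the animal order and the difference between the sides of their animals. The order and these differences are thus not separate observations. The range between the animal means had a median of 0.36 on the log2 CPM scale, from 0.02 for Chaf1a to 0.65 for Pold2, against a median of 0.23 over all genes. The roles differed in this order. With both sides averaged, animal 892 was lowest in all 8 licensing, 8 polymerase and 4 chromatin assembly genes. It was lowest in 5 of 6 origin firing, 4 of 6 clamp and 4 of 5 single-strand binding genes. Only 2 of 5 nucleotide supply and 1 of 4 E2F and cyclin E genes were lowest in animal 892. Animal 890 was highest in 4 of 6 origin firing and 3 of 5 nucleotide supply genes, against 32.9% of all genes. With 3 animals this order is a description. The immune marker sum was also lowest in animal 892 on the normal side and highest in animal 899 on both sides, and its part in the order of the replication genes was not tested.

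**Figure D3:**
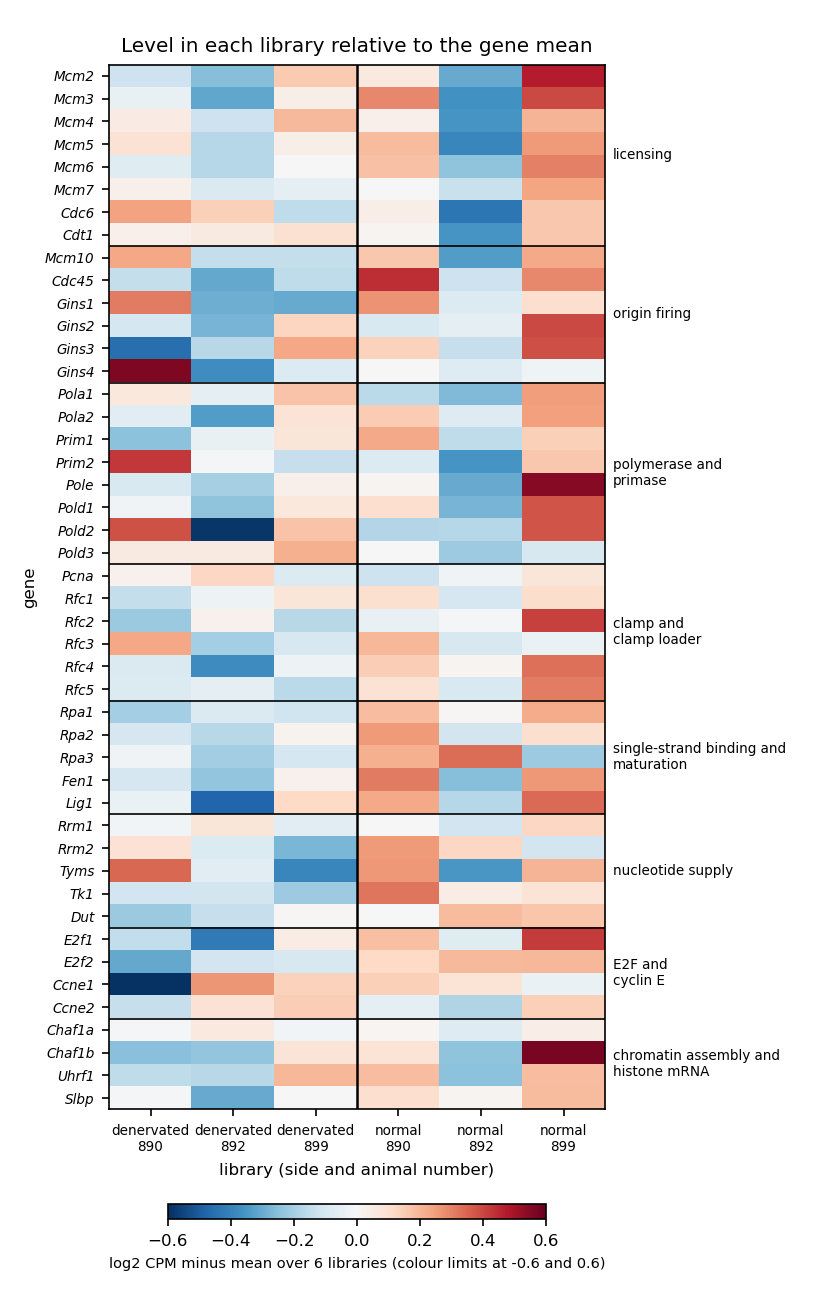
Level of each of the 46 genes in each library, as log2 CPM minus the gene's mean over 6 libraries, with red above and blue below the mean and colours limited at −0.6 and 0.6. Columns are the denervated libraries (left of the line) and the normal libraries (right), each for animals 890, 892 and 899, and rows are grouped by role. The licensing and polymerase rows are mostly blue in both columns of animal 892 and mostly red in the normal column of animal 899.

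The licensing genes followed this order of animals. The Mcm2-7 genes encode the subunits of one ring, and their levels per length lay between 18.8 (Mcm3) and 40.5 TPM (Mcm6) on average in denervated cells and between 22.9 (Mcm3) and 46.3 TPM (Mcm6) in normal cells. Mcm3 (chromosome 1, 20802968 to 20820312, minus strand, mm10) stood at 35.6, 29.6 and 37.7 CPM in the denervated libraries, against 44.97, 28.5 and 48.4 CPM in the normal ones. Animal 892 was thus the lowest on either side, and its normal library the lowest of all 6. Mcm3 was not called (edgeR, log2 fold change −0.22 with an SE of 0.11, adjusted p = 0.301), and neither was Mcm6 (edgeR, log2 fold change −0.16 with an SE of 0.09, adjusted p = 0.369). Mcm6 stood at 71.2, 66.5 and 75.1 CPM in the denervated libraries, against 84.7, 63.4 and 92.4 CPM in the normal ones. In both genes the 2 sides of animal 892 differed little (0.05 and 0.07 on the log2 scale) while those of animals 890 and 899 were lower by 0.25 or more on the denervated side. On the normal side all 8 licensing genes were lowest in animal 892 and highest in animal 899.

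Mcm2 stood at 41.9, 38.3 and 51.0 CPM in the denervated libraries, against 47.6, 37.0 and 63.3 CPM in the normal ones, so the groups overlapped. Across the 8 licensing genes 5 were lower and 3 higher, with a median log2 fold change of −0.06. The 3 on the higher side were Mcm4 (0.08), Cdc6 (0.17), the loading ATPase, and Cdt1 (0.12), its partner in loading. Cdc6 was the scarcest member of the whole set per length, at 1.64 ± 0.129 TPM in denervated and 1.60 ± 0.415 TPM in normal cells (SD, n = 3 each). Mcm5 and Mcm7 had log2 fold changes of −0.04 and −0.07. In animal 892 all 8 were higher on the denervated side, and in animal 899 all 8 were lower.

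Origin firing genes included the largest difference of the set. Cdc45, which joins the Mcm2-7 ring and GINS into the active helicase (chromosome 16, 18780447 to 18811987, minus strand), stood at 10.1, 9.02 and 10.03 CPM in the denervated libraries, against 15.2, 10.2 and 13.7 CPM in the normal ones. Its 3 denervated values lay between 9.02 and 10.1 CPM and below all 3 normal values. The mean was 9.72 ± 0.611 CPM in denervated and 13.04 ± 2.55 CPM in normal cells (SD, n = 3 each), a 1.32-fold lower fitted level, which did not pass (log2 fold change −0.41 with an SE of 0.16, adjusted p = 0.182, edgeR). The 95% interval of the log2 fold change was −0.74 to −0.07. Gins2 stood at 10.01, 8.87 and 11.8 CPM in the denervated libraries, against 10.1, 10.4 and 14.2 CPM in the normal ones, with overlapping groups (log2 fold change −0.17 with an SE of 0.16, adjusted p = 0.596, edgeR). The other GINS genes had log2 fold changes of −0.19 (Gins1), −0.25 (Gins3) and 0.08 (Gins4). Gins4 was set apart by 1 library, with 19.4, 10.1 and 12.4 CPM in denervated and 13.1, 12.4 and 12.9 CPM in normal libraries, the first being animal 890. Mcm10, which helps to activate the helicase, stood at 5.598, 4.29 and 4.29 CPM in the denervated libraries, against 5.34, 3.74 and 5.58 CPM in the normal ones. Its fold change was near 0 (−0.03), with an interval of −0.53 to 0.46.

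The polymerase genes were divided in direction. Polymerase alpha and primase start each strand, and their genes Pola1, Pola2, Prim1 and Prim2 had log2 fold changes of 0.12, −0.22, −0.14 and 0.19. Pola2 was lower in 3 of 3 animals (10.98, 9.09 and 12.2 CPM denervated, 12.8, 10.9 and 13.7 CPM normal), with overlapping groups. Prim1, the catalytic primase subunit and the most abundant of the group per length (30.6 ± 4.33 TPM in denervated and 33.4 ± 4.39 TPM in normal cells, SD, n = 3 each), stood at 21.4, 24.7 and 26.8 CPM in the denervated libraries, against 29.8, 22.9 and 28.1 CPM in the normal ones. Its direction turned without animal 890, to a log2 fold change of 0.02. For the leading strand polymerase Pole and the lagging strand polymerase subunits Pold1, Pold2 and Pold3, the values were −0.18, −0.13, −0.01 and 0.22. Pold3, a non-catalytic subunit (chromosome 7, 100082111 to 100121565, minus strand), stood at 24.7, 24.6 and 27.5 CPM in the denervated libraries, against 23.6, 20.3 and 22.2 CPM in the normal ones. It was the only gene of the 46 whose denervated libraries all lay above the normal ones, and it did not pass (log2 fold change 0.22 with an SE of 0.11, adjusted p = 0.336, edgeR). Pold2 varied most between animals, with 23.1, 11.8 and 20.0 CPM in denervated and 15.7, 15.7 and 23.1 CPM in normal libraries, and the sides of animal 890 differed in the opposite direction from those of the other animals.

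The sliding clamp was by far the most abundant transcript. Pcna (chromosome 2, 132249162 to 132253314, minus strand) reached 347 ± 11.4 TPM in denervated and 336 ± 35.03 TPM in normal cells (SD, n = 3 each). The next highest mean in normal cells was that of Slbp, at 79.1 TPM. Pcna stood at 130.5, 139.6 and 121 CPM in the denervated libraries, against 118, 126 and 135 CPM in the normal ones, with overlapping groups. Its log2 fold change was 0.05 with an interval of −0.13 to 0.22, and its sign turned with library totals (−0.02) and without animal 890. The clamp loader genes Rfc1 to Rfc5, which open the ring onto primed DNA, all had fold changes below 0, from −0.33 (Rfc4) over −0.24 (Rfc2), −0.20 (Rfc5) and −0.07 (Rfc1) to −0.04 (Rfc3). The sign of Rfc3 turned in the estimated counts (0.02). Rfc4 stood at 8.40, 6.84 and 8.73 CPM in the denervated libraries, against 9.88, 9.02 and 11.2 CPM in the normal ones, without overlap, and Rfc2 at 21.6, 25.7 and 22.5 CPM in the denervated libraries, against 24.5, 25.2 and 33.7 CPM in the normal ones, with overlap. Neither passed (adjusted p = 0.308 and 0.339, edgeR). For Rfc2 the normal library of animal 899 stood above the other 5.

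All 5 genes for single-strand binding and fragment maturation had fold changes below 0, between −0.27 and −0.16. Rpa1, the large subunit of the complex that coats single-stranded DNA (chromosome 11, 75298166 to 75348324, minus strand), had the smallest p of the 46. It stood at 53.7, 58.3 and 57.0 CPM in the denervated libraries, against 70.3, 62.2 and 72.2 CPM in the normal ones. The denervated values were thus close together and below every normal value, and the mean was 56.3 ± 2.34 CPM in denervated and 68.2 ± 5.30 CPM in normal cells (SD, n = 3 each). The fitted level was 1.21-fold lower (log2 fold change −0.27 with an SE of 0.09, adjusted p = 0.109, edgeR). The authors' deposited table gives Rpa1 a log2 fold change of −0.26 and an adjusted p of 0.219. Lig1, the ligase that seals Okazaki fragments, stood at 30.7, 22.6 and 34.2 CPM in the denervated libraries, against 37.0, 28.0 and 39.9 CPM in the normal ones. Its groups overlapped, with animal 892 low on both sides, while within the animals the log2 differences were alike, at −0.27, −0.30 and −0.22. It did not pass (log2 fold change −0.26 with an SE of 0.10, adjusted p = 0.164, edgeR). Rpa3, the smallest subunit, stood at 7.64, 6.69 and 7.20 CPM in the denervated libraries, against 9.02, 9.82 and 6.65 CPM in the normal ones, and was the only one of the 5 that was higher on the denervated side in animal 899. Rpa2 and the flap endonuclease gene Fen1 had log2 fold changes of −0.16 and −0.21.

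All 5 nucleotide supply genes had fold changes below 0, from −0.30 (Tk1) to −0.01 (Rrm1), and none passed. Tk1, the thymidine salvage kinase (chromosome 11, 117815526 to 117826092, minus strand), stood at 11.5, 11.6 and 10.7 CPM in the denervated libraries, against 15.7, 12.9 and 13.2 CPM in the normal ones. The groups did not overlap, and the test did not call it (log2 fold change −0.30 with an SE of 0.15, adjusted p = 0.300, edgeR). Dut, which removes dUTP, stood at 13.9, 14.8 and 16.3 CPM in the denervated libraries, against 16.2, 18.6 and 18.2 CPM in the normal ones, lower in 3 of 3 animals with a small overlap. Rrm1, the large ribonucleotide reductase subunit, was the most abundant of the group per length (53.2 ± 2.31 TPM in denervated and 54.4 ± 4.42 TPM in normal cells, SD, n = 3 each). It stood at 118, 125 and 114 CPM in the denervated libraries, against 119, 110.2 and 129.8 CPM in the normal ones, a log2 fold change of −0.01 with an interval of −0.19 to 0.17, whose sign turned with DESeq2, with its size factors, in the estimated counts and without animal 899. Rrm2, the small subunit whose level follows S phase, was lower in 3 of 3 animals (−0.17, −0.21 and −0.16 on the log2 scale) and did not pass (adjusted p = 0.414, edgeR). Tyms, the thymidylate synthase gene, stood at 33.5, 25.2 and 20.1 CPM in the denervated libraries, against 31.5, 20.7 and 30.3 CPM in the normal ones, with its lowest value in the denervated library of animal 899.

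The E2F activator genes E2f1 and E2f2 had similar differences in the 3 animals. E2f3, from the list of G1 to S control, did not share them. Its log2 differences were 0.28, 0.32 and −0.20 in animals 890, 892 and 899. It did not pass (log2 fold change 0.13 with an SE of 0.14, adjusted p = 0.666, edgeR). E2f1 (chromosome 2, 154559407 to 154569892, minus strand) stood at 11.6, 9.60 and 13.3 CPM in the denervated libraries, against 14.7, 12.3 and 17.3 CPM in the normal ones. The groups overlapped, with animal 899 high and animal 892 low on both sides, but within the animals the log2 differences were −0.33, −0.35 and −0.37. E2f2 (chromosome 4, 136172394 to 136196057, plus strand) stood at 11.9, 13.7 and 13.9 CPM in the denervated libraries, against 16.1, 17.0 and 17.0 CPM in the normal ones, without overlap, with differences of −0.43, −0.31 and −0.29. Neither E2f1 nor E2f2 passed (log2 fold change −0.35 with an SE of 0.14, adjusted p = 0.196 for E2f1, and log2 fold change −0.34 with an SE of 0.13, adjusted p = 0.186 for E2f2, edgeR). Their fitted levels were 1.28-fold and 1.27-fold lower. The cyclin E genes, whose products drive the kinase that opens S phase, had log2 fold changes of −0.10 (Ccne1) and 0.07 (Ccne2). Ccne1 stood at 4.20, 7.71 and 7.04 CPM in the denervated libraries, against 7.06, 6.78 and 6.22 CPM in the normal ones, where the denervated library of animal 890 alone was low. Ccne2 stood at 9.15, 10.7 and 11.2 CPM in the denervated libraries, against 9.66, 8.88 and 11.2 CPM in the normal ones, with overlapping groups.

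Chromatin assembly and histone supply had 3 of 4 fold changes below 0. Slbp encodes the stem-loop binding protein of replication-dependent histone mRNAs (chromosome 5, 33634952 to 33652574, minus strand) and was the most abundant of its group per length, at 66.5 ± 8.05 TPM in denervated and 79.1 ± 8.46 TPM in normal cells (SD, n = 3 each). It stood at 48.1, 39.2 and 48.5 CPM in the denervated libraries, against 51.9, 48.9 and 55.2 CPM in the normal ones. The groups did not overlap, and the gene did not pass (log2 fold change −0.21 with an SE of 0.09, adjusted p = 0.238, edgeR). Chaf1a and Chaf1b encode subunits of one histone chaperone but differed in spread. Chaf1a stood at 19.7, 20.7 and 19.6 CPM in the denervated libraries, against 20.0, 18.8 and 20.4 CPM in the normal ones, the narrowest range between animals of all 46 genes, and Chaf1b at 7.43, 7.49 and 9.34 CPM in the denervated libraries, against 9.39, 7.48 and 13.2 CPM in the normal ones, one of the widest. Their log2 fold changes were 0.02 and −0.28 (adjusted p = 0.946 and 0.419, edgeR). Uhrf1, which recruits the maintenance DNA methyltransferase, stood at 34.0, 33.7 and 43.5 CPM in the denervated libraries, against 43.0, 31.8 and 43.0 CPM in the normal ones, with overlapping groups.

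**Figure D4:**
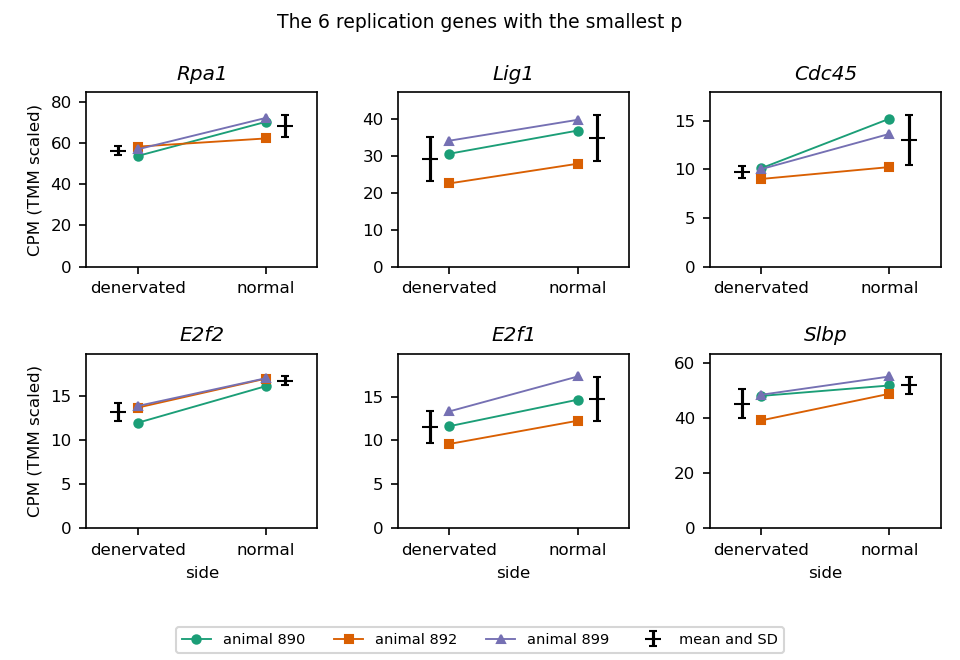
CPM of the 6 genes with the smallest p of the 46 (Rpa1, Lig1, Cdc45, E2f2, E2f1 and Slbp) in denervated (left) and normal (right) libraries. Coloured symbols joined by a line are the 2 sides of 1 animal, and black bars beside them are the mean and SD (n = 3). Each of the 18 lines is lower at the denervated end, and for Lig1 and E2f1 the lines are nearly parallel.

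Summed over all 46 genes, the level per length was 1193, 1105 and 1262 TPM in the denervated libraries and 1288, 1116 and 1394 TPM in the normal ones. In TPM, which carry no TMM factors, each animal's denervated sum was lower than its normal sum, with the smallest difference in animal 892. The TMM factors of animal 892 were 0.981 for the denervated and 1.03 for the normal library. Its median log2 CPM difference over the 46 genes was 0.04. Pcna was the largest part of the sums, at 347 TPM in denervated and 336 TPM in normal cells on average. The mean was 1187 ± 78.7 TPM in denervated and 1266 ± 140.5 TPM in normal cells (SD, n = 3 each). The means were less apart than the SD of the normal libraries, which measures the spread between animals and not the paired difference. The summed genes of single-strand binding and maturation stood at 104, 97.8 and 118 TPM in denervated and 139.9, 118 and 128 TPM in normal libraries. The groups overlapped narrowly there, at 118.5 TPM in the denervated library of animal 899 and 117.99 TPM in the normal library of animal 892. Other roles differed less in their means. The nucleotide supply sums did not overlap, at 119.9, 118.8 and 116.1 TPM in denervated and 138.4, 121.7 and 132.4 TPM in normal libraries. The chromatin assembly sum had a mean of 106 TPM in denervated and 121 TPM in normal cells. The polymerase and primase sum had a mean of 121 TPM in denervated and 122 TPM in normal cells, and the clamp and clamp loader sum 451 and 455 TPM. The clamp sum was higher on the denervated side in animals 890 (462 against 442 TPM) and 892 (437 against 418 TPM), and lower in animal 899 (456 against 506 TPM).

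Other cell cycle genes give the setting, from lists that hold none of the 46. Over all genes tested, 2.88% were called higher, 0.577% were called lower and 54.7% had a fold change below 0, shares that apply to each list. Of 36 other replication genes, 1 rose in the paired fit and 0 fell, near these shares, and 18 fold changes were on either side of 0. The one that rose was Top1, the topoisomerase that relaxes supercoils ahead of forks and of transcription. It stood at 565, 498 and 521 CPM in the denervated libraries, against 344, 349 and 417 CPM in the normal ones (log2 fold change 0.52 with an SE of 0.09, adjusted p = 0.00977, edgeR), higher in 3 of 3 animals. Without the block its log2 fold change was 0.51 in edgeR, with an adjusted p of 0.146, and 0.52 in DESeq2, with an adjusted p of 6.9e-05. Limma on log2 TPM gave 0.49 and 0.50 with its 2 pseudocounts and did not call it. None of 18 other nucleotide and chromatin genes passed, and the smallest p belonged to Casp8ap2 (log2 fold change 0.29, adjusted p = 0.154, edgeR) and Shmt1 (log2 fold change 0.20, adjusted p = 0.198, edgeR). None of 28 tested genes of G1 to S control passed either. There Lin54, a DNA-binding subunit of the DREAM complex, stood at 58.6, 58.6 and 58.1 CPM in the denervated libraries, against 44.5, 39.8 and 52.6 CPM in the normal ones (log2 fold change 0.37 with an SE of 0.10, adjusted p = 0.0527, edgeR), and E2f8, a repressor E2F, at 32.2, 27.1 and 28.6 CPM in the denervated libraries, against 20.2, 20.7 and 25.02 CPM in the normal ones (log2 fold change 0.42 with an SE of 0.12, adjusted p = 0.0727, edgeR). Both had higher values in 3 of 3 animals. Of 14 tested genes of the S phase checkpoint and damage response none passed. The smallest p belonged to Mdm2 (log2 fold change 0.23, adjusted p = 0.126, edgeR) and Brca2 (log2 fold change 0.34, adjusted p = 0.221, edgeR). Brca2 differed between the animals, by −0.09, 0.83 and 0.25 on the log2 scale in animals 890, 892 and 899. Its log2 fold change was 0.10 without animal 892 and 0.54 without animal 890, where it passed (adjusted p = 0.00167, edgeR).

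Of 24 genes of G2 and mitosis none passed, against 3.46% of all genes. Fold changes were above 0 in 15 and below 0 in 9, against 54.7% of all genes below 0, and their median was 0.07. The smallest p belonged to the checkpoint kinase gene Bub1 (log2 fold change 0.55, adjusted p = 0.1097, edgeR) and the kinesin gene Kif20a (log2 fold change 0.28, adjusted p = 0.127, edgeR). Bub1 differed by 1.10, 0.44 and 0.04 on the log2 scale in animals 890, 892 and 899. Its log2 fold change was 0.25 without animal 890 and 0.78 without animal 899, where it passed (adjusted p = 0.00622, edgeR). With both sides averaged, animal 890 was highest in 22 of 24 mitotic genes but in 12 of the 46 replication genes, against 32.9% of all genes. Animal 892 was lowest in 11 of 24 mitotic, 36 of the 46, 25 of 36 other replication and 6 of 14 checkpoint and damage genes, against 33.8% of all genes. On the normal side alone, animal 892 was lowest in 12 of 24 mitotic and 12 of 14 checkpoint and damage genes, against 33.8%. On the denervated side it was lowest in 3 of 24 and 8 of 14, against 31.1%. Whether the lists differ was not tested.

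**Figure D5:**
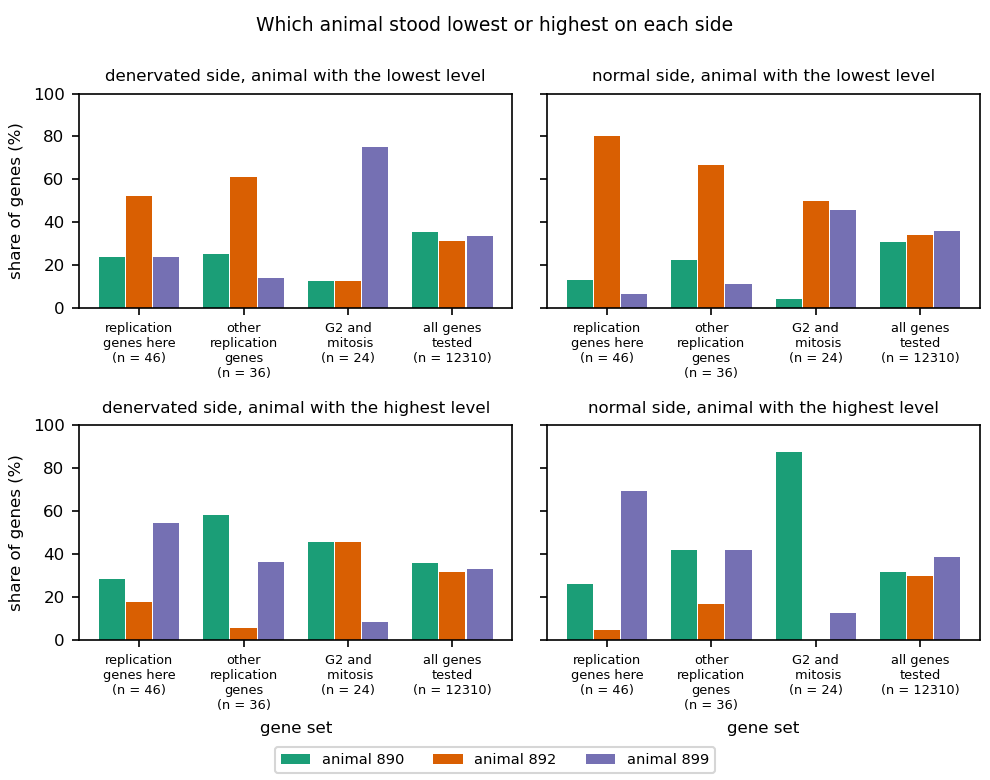
Share of genes (%) for which animal 890 (green), 892 (orange) or 899 (purple) had the lowest (top) or highest (bottom) level among the 3 denervated (left) or 3 normal (right) libraries, for the 46 replication genes, 36 other replication genes, 24 genes of G2 and mitosis, and all 12310 genes tested. Animal 892 was lowest for 52.2% of the replication genes on the denervated side and 80.4% on the normal side, while over all genes the animals had nearly equal shares.

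The authors' deposited table of the same comparison gives 21 of the 46 genes an adjusted p, the smallest being 0.219, and lists the other 25 as low. In it 33 of 46 fold changes are below 0, and 43 of 46 have the sign found here. For 10 of the 46 genes, exons overlap those of another annotated gene by 100 bases or more, among them Chaf1a (4648 bases, with Ubxn6), Gins2 (2758 bases, with Gse1) and Fen1 (1909 bases, with Gm10143). Cdc45 (209 bases, with Ufd1), Lig1 (247 bases, with Zswim9) and Rfc4 (194 bases, with Eif4a2) are among them too. The strand setting of the counting is not given in the sources used here, so reads of such pairs may not have been kept apart. Between the count matrix and the estimated counts the log2 fold change of these 46 genes differed by at most 0.08, for Cdc6.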

How the data were processed

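Poly(A) RNA of 6 samples was sequenced from directional libraries, per the labels' protocols. Per the submitters' processing notes, the tools included STAR 2.6.1a and Salmon 0.11.2 and the build was mm10, with no roles stated. For annotation and counter there is nothing given in the sources used here. The authors deposited raw counts per gene (26 of 24982 names had become dates; those rows stayed in totals and tests), TPM, estimated counts (Salmon, per the file headers) and a table with log2 fold changes (denervated over normal), a test score, p-values and mean normalised signal.

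Groups and animal numbers came from sample titles. Equal numbers mark the denervated and normal side of one mouse, which the labels' protocols state. Deviations from group means (log2 CPM) correlated at 0.356, 0.361 and 0.443 in the 3 pairs, across genes, which are not independent.

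The test was edgeR 4.0.16's quasi-likelihood test (R 4.3.3) with TMM factors, filterByExpr (minimum count 10, minimum total 15) and the animal as block. P-values were Benjamini-Hochberg adjusted over all 12310 genes and called below 0.05. The SE was taken as |log2 fold change|/√F, and 95% intervals use its total degrees of freedom. Differences within animals are log2 CPM (prior count 2). The code was tested on simulated data. A count of 3 equals 0.115 to 0.312 CPM, for counting error only. With the block, p-values rest on how the difference between the sides varies over these 3 animals, with information shared across genes. Alternatives were no block, DESeq2 1.42.0, limma 3.58.1 on log2(TPM + 1) and log2(TPM + 0.1) with a mean TPM of at least 1 (low genes are understated there), other scaling, filters and threshold, rounded estimated counts, and leaving out animals.

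Members and lists were chosen with earlier results of these data known. Named were, in each role, the 2 genes with the smallest p and the highest mean TPM, and in each other list those called or the 2 with the smallest p; others named were chosen after their values were seen. Coordinates are from GENCODE M21 (mm10).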

Additional observations from a re-analysis of the deposited data

How the results depend on the processing

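None of the 46 genes was called under any of the 14 alternatives, in which their median log2 fold change lay between −0.22 (library totals) and −0.08 (without animal 899). Without the animal as a replicate block, edgeR called 0 of all 12310 genes, against 426 with it, with 930 genes higher and 607 lower at an unadjusted p below 0.05. DESeq2 called 489 genes with and 367 without the block. Limma called 1 gene with either pseudocount, no filter on low counts gave 987 and an adjusted p below 0.1 gave 820. Leaving out 1 animal gave 248 to 976 calls, the lowest without animal 892 and the highest without animal 899. Of the calls, 83.3% were higher with TMM factors and 59.3% with library totals.

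Of the 46 genes, 14 were lower in every animal, against 21.4% of all genes, and 26 with library totals, against 31.2%. With 1 animal left out the number was 15 to 28, against 33.9% of all genes at the lowest (without animal 899) and 27.8% at the highest (without animal 892). Genes higher in every animal numbered 1, 2 with DESeq2 size factors or no filter, 0 with library totals or limma on TPM with either pseudocount, and 2 to 10 when 1 animal was left out, against 28.8% of all genes at the lowest and 30.7% at the highest. The direction does not depend on the block, DESeq2's test or the threshold, so these were not recomputed.

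Among single genes, Rrm1 turned to 0.0017 and 7.3e-05 in DESeq2 with and without the block, 0.0032 with its size factors, and 0.0087 in the estimated counts. Leaving out 1 animal gave −0.087 to 0.086 for Rrm1, −0.0036 to 0.147 for Pcna and −0.252 to 0.0196 for Prim1. Pcna turned to −0.0156 with library totals. Top1 was no longer called in edgeR without the block (log2 fold change 0.51) or in limma (0.49 and 0.50), and DESeq2 called it with and without the block. Lin54, E2f8, Bub1 and Brca2 passed with no filter, and some of them under other settings, 10 such cases in all. The causes were not tested. With 3 animals the 95% interval of a gene reached 0.28 to either side in the median, which limits the difference these data can show in a single gene.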

Other observations

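The fold changes were set beside the presence of an E2F core in the promoter window. The 12 replication genes with a core in their window had a median log2 fold change of −0.06 (8 of 12 below 0, and 2 lower in 3 of 3 animals). Over all genes, 54.7% were below 0 and 21.4% were lower in 3 of 3 animals. The 26 with a window but no core had a median of −0.19 (24 of 26 below 0, and 11 lower in 3 of 3 animals). Within animals 890, 892 and 899, the medians were −0.04, 0.06 and −0.26 for genes with a core and −0.23, −0.03 and −0.20 for genes without. Animal 892 had the lowest level in 10 of 12 genes with a core and in 20 of 26 without. The groups also differed in role. Of the 12 genes with a core, 6 were licensing and 3 polymerase and primase genes, roles with median log2 fold changes of −0.06 and −0.07. No nucleotide supply, single-strand binding or chromatin assembly gene with a window held a core. Only the exact spellings given above were searched, so a gene without a core may still be a target of E2F factors. The comparison was chosen after the values were seen and was not tested.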
